A study of Homo sapiens with 6 samples.

Results

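The comparison covers 4 of the 6 libraries of the series: 2 unpurified libraries, made with the Pi-ATAC reverse crosslinking buffer that lacks SDS and carried into PCR with no DNA purification, and 2 SDS buffer libraries, reverse crosslinked in a buffer containing SDS and purified before PCR. The libraries were chosen by their labels, not by any measured value, and the data are 1 list of open chromatin peaks per library. All came from GM12878, a human B-lymphoblastoid cell line immortalised with Epstein-Barr virus, so every library is of 1 line. The sample records give the same steps for all 4 libraries. Cells were fixed in 1% PFA, lysed with 0.05% Igepal CA-630 and transposed for 30 min at 37 °C. The reaction was stopped with 40 mM EDTA. Crosslinks were reversed at 65 °C overnight with proteinase K, which was then inactivated for 10 min at 80 °C. The methods, however, give the 0.05% Igepal CA-630, the EDTA stop and the 80 °C step only for the workflow without purification. For the SDS buffer they describe the normal transposition, so these steps may also have differed between the groups. The remaining 2 libraries, called purified SDS-free here, used the SDS-free buffer and a purification step. They share the buffer with the unpurified group and the purification with the SDS buffer group, whereas between the compared groups buffer and purification changed together and cannot be told apart. No label says that replicates came from separate cultures, so p-values measure at most the spread between these libraries, which may be technical.

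In ATAC-seq, the transposase Tn5 cuts and tags the DNA it can reach, mostly between nucleosomes, and the tagged fragments pile up at promoters, enhancers and insulators. Formaldehyde fixation ties DNA to protein, and the links must be undone before the fragments can be amplified. The SDS of the usual buffer inhibits Taq polymerase and therefore calls for purification. Promoters in human cells fall into a CpG-rich class, typical of housekeeping genes and often shared by a divergent gene pair, and a CpG-poor class, typical of tissue-restricted genes. In B cells, factors such as PAX5 and EBF1 occupy distal enhancers that set the identity of the lineage.

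Peaks of all 6 libraries were merged into 56447 regions, of which 51347 were called, by at least 1 bp of a peak, in at least 1 of the 4 compared libraries. The unpurified libraries held 36252 and 34438 peaks, and the SDS buffer libraries 37654 and 34826. Of the regions, 22526 were called in all 4 libraries. A further 1230, or 2.4% of the 51347, were called in both unpurified libraries and neither SDS buffer library, and 1448, or 2.82%, in both SDS buffer libraries and neither unpurified library. Peak number overlapped between the groups. The lowest local background, a relative measure of depth derived from the deposited fold enrichment and p-value, was 1.76 and 1.86 in the unpurified and 1.74 and 1.52 in the SDS buffer libraries.

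The regions of one group only differed first in base composition and place. Those of the unpurified libraries had a median of 49.8% GC in the window of the summit base and 100 bp on each side, and those of the SDS buffer libraries 42.3%, beside 46.8% for all 51347 regions. A protein-coding transcript start lay within 1 kb of 249 of the 1230 unpurified-only summits (20.2%) and of 96 of the 1448 SDS-only summits (6.63%). Over 10 kb from any such start lay 62.8% of the first set and 77.8% of the second, and the median distance was 20.4 kb and 47.0 kb. Of all 51347 regions, 23.3% lay within 1 kb of a start and 63.8% over 10 kb away, with a median of 25.6 kb. The unpurified-only shares were thus near those of all regions, with a slightly lower promoter share. The SDS-only set was the more distal. The sets were defined by presence in 4 libraries, so these shares are a description with no test.

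The following sequences are single examples from each set, and their CpG counts overlap. They are the first 3 regions of the unpurified-only set and the first 2 of the SDS-only set by the −log10 q of the weaker of the libraries that called them. Each is the same window around the summit, read from GRCh37 (hg19), plus strand, 5′ to 3′, with every CpG dinucleotide in capitals and the nearest protein-coding gene as its name. EPB41L2 (chr6:131351115-131351315), SKIC8 (chr15:78591822-78592022) and PSAT1 (chr9:81054524-81054724) were unpurified-only, and PTDSS2 (chr11:450188-450388) and ZNF33B (chr10:42392583-42392783) were SDS-only.
EPB41L2: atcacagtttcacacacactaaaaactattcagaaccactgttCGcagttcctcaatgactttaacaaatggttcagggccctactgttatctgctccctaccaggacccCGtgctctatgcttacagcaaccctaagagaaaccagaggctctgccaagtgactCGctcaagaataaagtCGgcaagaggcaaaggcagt
SKIC8: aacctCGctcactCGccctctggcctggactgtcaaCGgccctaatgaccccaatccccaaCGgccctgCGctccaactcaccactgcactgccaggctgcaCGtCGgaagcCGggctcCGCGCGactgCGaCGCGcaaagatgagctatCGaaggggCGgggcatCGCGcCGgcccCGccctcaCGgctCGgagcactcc
PSAT1: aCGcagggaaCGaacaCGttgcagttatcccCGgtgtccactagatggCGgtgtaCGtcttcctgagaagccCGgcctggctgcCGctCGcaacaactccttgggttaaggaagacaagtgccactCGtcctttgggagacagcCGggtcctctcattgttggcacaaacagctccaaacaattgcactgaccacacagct
PTDSS2: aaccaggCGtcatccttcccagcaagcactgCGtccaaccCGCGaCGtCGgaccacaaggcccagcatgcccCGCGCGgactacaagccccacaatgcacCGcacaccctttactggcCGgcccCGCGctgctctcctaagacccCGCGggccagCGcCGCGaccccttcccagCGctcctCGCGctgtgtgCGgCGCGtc
ZNF33B: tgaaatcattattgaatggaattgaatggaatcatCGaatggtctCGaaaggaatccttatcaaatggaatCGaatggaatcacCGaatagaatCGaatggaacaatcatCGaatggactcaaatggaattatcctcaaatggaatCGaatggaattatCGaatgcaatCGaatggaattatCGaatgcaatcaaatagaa
The unpurified-only windows held 4, 22 and 11 CpG dinucleotides, in the order printed, and the SDS-only windows 24 and 10. The strongest SDS-only region was thus a CpG-dense promoter, against the direction of its set. The window near ZNF33B is built of a short repeat, with 9 copies of GGAAT counted over both strands, and lies 37747 bp from an assembly gap of over 1 Mb.

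The strongest unpurified-only region (chr6:131350951-131351408) lay in an intron of EPB41L2, which encodes a protein of the membrane skeleton. Its summit pileup, the number of overlapping fragments at the highest point, was 24 and 28 in the unpurified libraries, with no peak in the SDS buffer libraries, and 17 and 12 in the purified SDS-free libraries. The promoter of SKIC8, a subunit of the SKI complex of cytoplasmic RNA decay, had 21 and 26, and again 12 and 16 in the purified SDS-free libraries. The third, 142565 bp from the nearest start, that of the serine synthesis gene PSAT1, had 24 and 24. The rest of the first 10 were regions nearest TMCO5A, ICA1, OR4C46 and TNIK, and the promoters of MRPL58, of the mitochondrial ribosome, ENTPD5, an endoplasmic reticulum nucleotidase, and DHX30, an RNA helicase. The region nearest OR4C46 lies 13754 bp from an assembly gap of over 1 Mb and had no peak in the purified SDS-free libraries. Of these 10 regions, 4 were promoters, 3 intronic and 3 intergenic, and 8 were also called in at least 1 purified SDS-free library.

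The strongest SDS-only region (chr11:449966-450456) was the promoter of PTDSS2, a phosphatidylserine synthase, with a pileup of 36 and 27 in the SDS buffer libraries and of 19 and 19 in the purified SDS-free libraries. The repeat region nearest ZNF33B had 71 and 68, and no peak in the other 4 libraries. Regions nearest UBASH3B, SLITRK1, CLINT1, SLC25A26, LEPROT, ARAP2 and ALG10 were also among the first 10. Of these 10, 1 was a promoter, 2 were intronic and 7 intergenic, and 7 were called in at least 1 purified SDS-free library. Among both sets of 10, pileups of the calling libraries stayed between 18 and 36 except at the repeat region.

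The purified SDS-free libraries took no part in the choice of regions. They called 52.7% and 32.9% of the unpurified-only regions, and 45.3% and 25.6% of the SDS-only regions. For regions called in 1 library of each group, the shares were 48.6% and 28.0%. In each purified SDS-free library the unpurified-only share was thus above, and the SDS-only share below, that of regions with an even split. The purified SDS-free libraries differed from each other by more than these sets did.

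The share of regions in each set followed GC content. Below 40% GC, 204 of 11727 regions (1.74%) were unpurified-only and 570 (4.86%) SDS-only. Between 45% and 50% GC the shares were 2.60% and 2.84%. At 70% GC or more they were 2.89% and 0.739%, or 172 and 44 of 5958 regions. The SDS-only share was lower at every step of GC, and the unpurified-only share was at its lowest below 40%. Among regions over 10 kb from a start the unpurified-only share ran from 1.73% below 40% GC to 5.25% at 70% or more, and the SDS-only share from 4.73% to 0.973%. The top class of distal regions was small, with 27 unpurified-only and 5 SDS-only regions among 514.

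**Figure D1:**
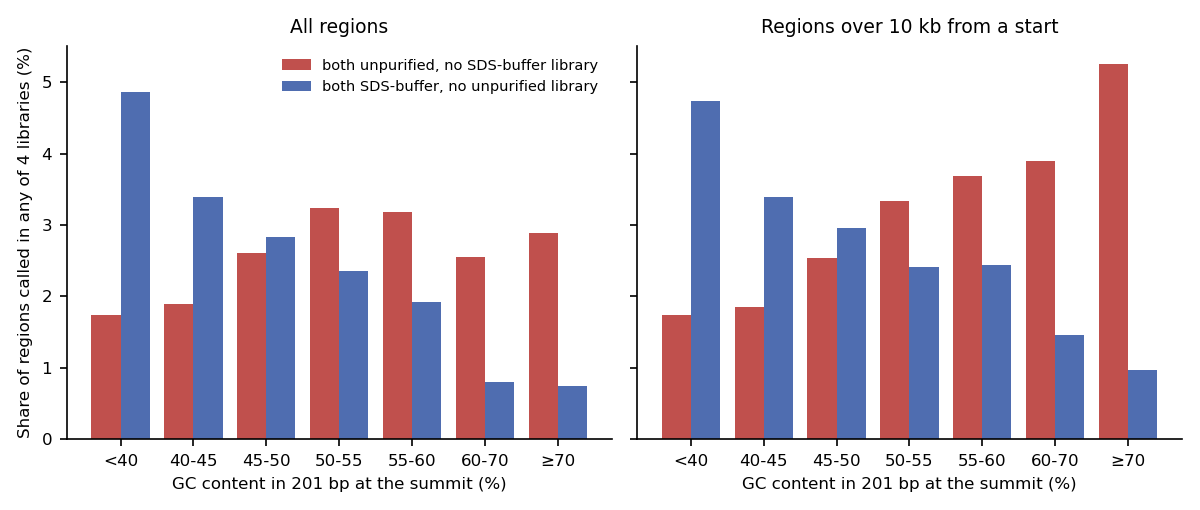
Share (%) of the regions called in any of the 4 libraries that were called in both unpurified and no SDS buffer library (red) or the reverse (blue), by GC content (%) around the summit, for all regions (left) and for those over 10 kb from a protein-coding transcript start (right). The blue bars drop from 4.86% to 0.739% with rising GC in all regions, and the red bars climb from 1.73% to 5.25% in distal regions.

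Pileups at regions that every library called showed a gradient in the same direction. In 20064 regions called in all 6 libraries, the log2 pileup of each library, scaled by its median, was set against the mean of the 6, and regions were split into quintiles by GC. The difference between the highest and the lowest GC quintile was 0.08 and 0.10 on the log2 scale in the unpurified libraries, −0.17 and −0.18 in the SDS buffer libraries, and 0.05 and 0.12 in the purified SDS-free libraries. The groups did not overlap, with a mean of 0.09 ± 0.01 (SD, n = 2) against −0.17 ± 0.01 (SD, n = 2), and the exact two-sided permutation test gave p = 0.333, the smallest that 2 libraries against 2 allow. The purified SDS-free libraries lay on the side of the unpurified libraries.

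**Figure D2:**
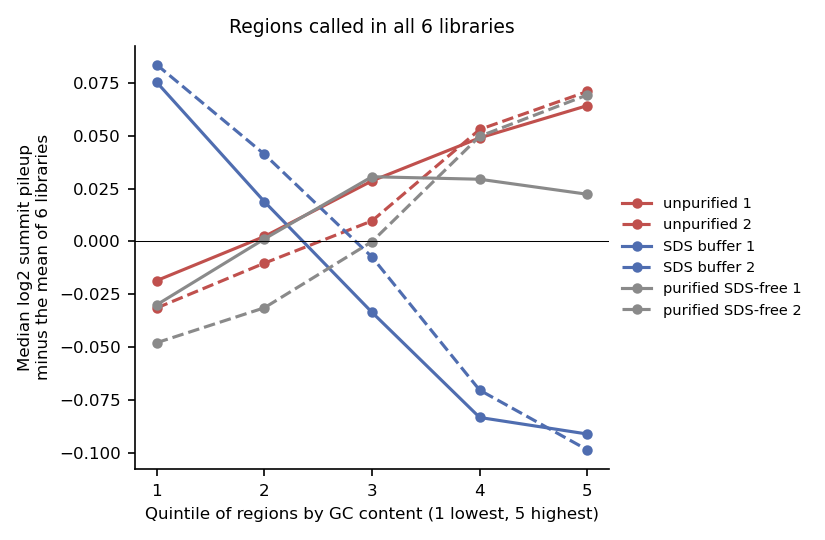
Median deviation of each library's log2 summit pileup from the mean of the 6 libraries (y axis, log2), in quintiles of the regions called in all 6 libraries by GC content (x axis). Lines are single libraries (solid, replicate 1; dashed, replicate 2); the SDS buffer lines run downwards and the unpurified lines upwards, with differences between the end quintiles of −0.17 and −0.18 against 0.08 and 0.10.

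Between the 2 compared groups alone, the median log2 fold change (unpurified over SDS buffer) of the 22526 regions called in all 4 was −0.12 in the lowest GC quintile, −0.04, 0.01 and 0.11 in the next, and 0.16 in the highest. The gradient was present in distal regions, from −0.12 to 0.17, and in promoter regions, from −0.11 to 0.16. Over all promoter regions the median was 0.12 (8475 regions) and over all distal regions −0.04 (11736 regions), beside 0.03 for all 22526. Both unpurified libraries were above both SDS buffer libraries in 4706 regions (20.9%) and below them in 3541 (15.7%). Scaling by the lowest background in place of the median turned this split, to 3072 above and 5140 below, so only differences between classes of regions are read here.

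CpG-rich promoters had a peak more often in the unpurified libraries. Of 12813 CpG-rich protein-coding promoters, classed over 500 bp on each side of 1 start per gene by a CpG observed/expected ratio of at least 0.6 and at least 50% GC, 72.1% and 71.8% had a peak within 1 kb in the unpurified libraries. The SDS buffer libraries had 69.9% and 67.9%. The difference was 3.06 percentage points, larger than the spread within either group (SD 0.177 and 1.40), and the purified SDS-free libraries had 72.3% and 68.9%, spanning both groups. Of the 6989 CpG-poor promoters, 15.1% and 14.8% had a peak in the unpurified libraries and 14.3% and 13.7% in the SDS buffer libraries. Neither class overlapped between the groups, but the exact permutation p was 0.333 for each, 0.381 after Benjamini-Hochberg adjustment over the 8 library-level measures, and could not be lower.

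Divergent promoter pairs, with starts on opposite strands at most 1 kb apart, were open most often. Of 1825 such promoters, 89.8% and 90.7% had a peak in the unpurified libraries and 88.7% and 87.3% in the SDS buffer libraries, again without overlap (exact permutation p = 0.333). Of 14596 promoters of long non-coding RNA genes away from coding starts, 8.34% and 8.06% had a peak in the unpurified libraries and 8.06% and 7.60% in the SDS buffer libraries. For these the groups met at 8.06% (exact permutation p = 0.667).

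**Figure D3:**
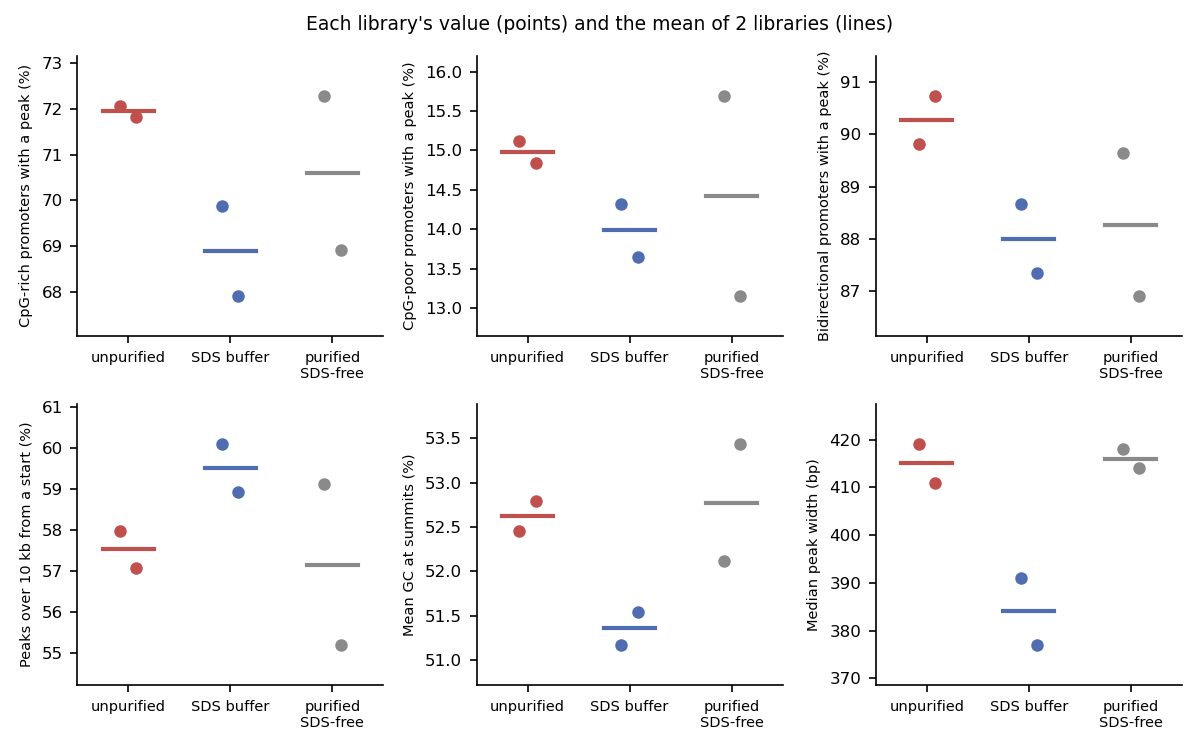
Values of single libraries (points) and group means of 2 libraries (lines) for 3 promoter classes (% with a peak), the share of peaks over 10 kb from a start (%), mean GC at summits (%) and median peak width (bp); the y axes do not start at 0. The unpurified and SDS buffer points do not overlap in any panel, and the purified SDS-free points are far apart in the promoter and distal panels but close together in width, at 418 and 414 bp.

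Promoters with a peak in one group only lay mostly on the unpurified side. A peak in both unpurified libraries and neither SDS buffer library was found at 216 of 19802 coding promoters (1.09%), and the reverse at 58 (0.293%). Among CpG-rich promoters the counts were 181 and 43, among CpG-poor promoters 35 and 15, and among divergent promoters 20 and 2. Long non-coding RNA promoters counted 49 and 30. The unpurified-only count was the larger in each class. Since the lowest background was also higher in both unpurified libraries, the counts were repeated with the 30136 strongest peaks of every library, a choice made after the data were seen, and gave 253 against 41. The part of depth in this difference was not tested beyond that.

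Of the 216 unpurified-only promoters, 144 and 98 were also called in the purified SDS-free libraries, and of the 58 SDS-only promoters 32 and 21. By the weaker −log10 q, the strongest in the unpurified set after SKIC8, MRPL58 and ENTPD5 was that of BBOF1, the divergent partner of ENTPD5, with the same pileup of 21 and 21. It was followed by the CpG-poor promoter of IL12B, a subunit of interleukin-12, with 26 and 24. After PTDSS2, the strongest in the SDS set were TMEM238, with 28 and 37, and DGKQ, a diacylglycerol kinase, with 19 and 16. For scale, the median pileup at the 8044 CpG-rich promoters with a peak in all 4 was 39 and 38 in the unpurified and 35 and 31 in the SDS buffer libraries. The promoters of BBOF1, IL12B, TMEM238 and DGKQ were picked with their values in view.

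At promoters with a peak in all 4 libraries, the strongest peak was compared on the same scale. CpG-rich promoters had a median log2 difference of 0.13, with both unpurified libraries above both SDS buffer libraries at 2709 of 8044 (33.7%) and below at 537 (6.68%). CpG-poor promoters had 0.06, with 185 of 755 (24.5%) above and 70 (9.27%) below. For divergent promoters the median was 0.11 with 30.0% above. Over all 8799 coding promoters with a peak in all 4 libraries the median was 0.13, with 32.9% above and 6.90% below. CpG-rich promoters were close to these values, and divergent and CpG-poor promoters had lower shares above. Of all regions, distal ones included, 20.9% were above and 15.7% below.

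The distal share of peaks, with a summit over 10 kb from any coding start, was 58.0% and 57.1% in the unpurified libraries and 60.1% and 58.9% in the SDS buffer libraries, a difference of −1.98 percentage points (exact permutation p = 0.333). Promoter peaks numbered 10805 and 10731 against 10544 and 10197, while distal peaks numbered 21024 and 19656 against 22630 and 20525. The promoter counts did not overlap and the distal counts did. The median summit pileup of promoter peaks over that of distal peaks was 1.60 and 1.63 in the unpurified libraries and 1.50 and 1.50 in the SDS buffer libraries. Promoter pileup differed, at a median of 32 and 31 against 30 and 27, whereas distal pileup was 20 and 19 against 20 and 18.

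Mean GC content at summits was 52.5% and 52.8% in the unpurified libraries and 51.2% and 51.5% in the SDS buffer libraries, a difference of 1.27 percentage points (exact permutation p = 0.333). Measures added after the data were seen split it by place. At distal summits GC was 45.6% and 45.6% against 44.6% and 44.7%, and at promoter summits 67.1% and 67.2% against 66.7% and 66.6%. So the difference was not only one of promoter number. In the purified SDS-free libraries distal GC was 45.5% and 45.7%, on the side of the unpurified values. Peaks were also wider in the unpurified libraries, with a median of 419 and 411 bp against 391 and 377 bp, and 418 and 414 bp in the purified SDS-free libraries.

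Short sequence motifs were counted in the windows around the summit, on both strands. The CTCF core AGGGGGCGC, part of the site of the insulator protein, was present in 31 of the 1230 unpurified-only regions (2.52%) and 5 of the 1448 SDS-only regions (0.345%), beside 1.02% of the 51347 regions. The SP/KLF box GGGCGGG, common in CpG-rich promoters, was present in 13.7% and 3.73%, beside 13.6%. The EBF1 site CCCNNGGGA was present in 6.50% and 3.11%, beside 4.79%. The ETS site CCGGAAG was present in 3.82% and 1.66%, beside 4.34%, and the YY1 site AAGATGGCG in 9 and 2 regions. The GC-rich NRF1 site was in 1 unpurified-only and 2 SDS-only regions. In the unpurified-only set the SP/KLF share was near that of all regions, and the ETS share below it. Except for NRF1, these motifs were thus more frequent in the unpurified-only set than in the SDS-only set. The AP-1 site TGANTCA went the other way with 11.8% and 17.7%, beside 14.5%, as did the interferon-type element GAAANNGAA with 8.37% and 13.5%, and the RUNX site TGTGGTT with 8.13% and 12.9%. The NF-kB site GGGNNTTTC was present in 7.56% and 8.56%, beside 7.64%.

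Motif content depends on base composition, so the 394 unpurified-only and 367 SDS-only regions of 45% to 55% GC were set side by side. There AP-1 was present in 16.2% and 17.2%, the interferon-type element in 8.63% and 7.36%, and NF-kB in 10.7% and 10.9%. EBF1 was present in 7.36% and 4.63%, and RUNX in 8.12% and 12.5%, on 29 against 17 and 32 against 46 regions. Motifs were not counted in all regions of this GC range, so these values do not say which set departs from them. The SP/KLF box was present in 2.79% and 1.91%, on 11 against 7 regions, and the CTCF core was left in 2 against 1 regions. The octamer ATGCAAAT, bound by OCT factors, was in 3.05% and 2.18%, and the PU.1 site GAGGAAGT in 18 and 11 regions. The ETS (CCGGAAG), NF-Y (CCAATCAG), YY1 (AAGATGGCG) and NRF1 (GCGCATGCG) letters were present in at most 8 regions of either set.

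A test of pileup was run with limma over the 22526 regions called in all 4 libraries. Its variance followed a trend with pileup over all regions. Its p-values therefore rest on spread pooled over regions, not on the spread between libraries at a single region. With Benjamini-Hochberg adjustment at 0.05 no region (0%) was higher in the unpurified libraries and 5 (0.0222%) were lower, while at an unadjusted p under 0.05 there were 1095 higher and 734 lower. This unadjusted balance turned to 429 higher and 1141 lower with scaling by the lowest background, and to 674 and 879 with equal peak numbers. The 5 lower regions did not include any promoter. The largest difference was at chr17:51183403-51183798, in an intergenic region 716684 bp from the start of KIF2B, where the pileup was 13 and 20 in the unpurified and 69 and 75 in the SDS buffer libraries (log2 fold change −2.24, SE 0.222, limma adjusted p = 1.41e-19). No peak was called there in the purified SDS-free libraries. In an intron of PCBD2 (chr5:134259675-134260463) the pileup was 79 and 71 against 113 and 111 (log2 fold change −0.66, SE 0.12, adjusted p = 0.00039), and near ROCK1 (chr18:18518755-18519512), 8374 bp from an assembly gap, 33 and 39 against 60 and 72 (−0.96, adjusted p = 0.000475). Near MTRNR2L1 (chr17:22020534-22020955) it was 46 and 60 against 85 and 83 (−0.76, adjusted p = 0.00104), and near RAMP3 (chr7:45291427-45291843) 18 and 23 against 48 and 42 (−1.22, adjusted p = 0.00151). In each of the 5 the groups were well apart, and the purified SDS-free values, such as 67 and 74 at PCBD2 and 16 and 20 at RAMP3, were on the unpurified side.

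Except for the region near ROCK1, these regions resemble the mitochondrial genome, copies of which were inserted into nuclear chromosomes during evolution. Aligned with blastn to the mitochondrial sequence of GRCh37, they matched over 344 bp at 96.8% identity (KIF2B), 789 bp at 94.8% (PCBD2), 229 bp at 88.2% (MTRNR2L1) and 164 bp at 95.1% (RAMP3). The search was made after these regions were seen. Across all regions called in the 4 libraries it found 10 with a match of at least 100 bp and 80% identity. In 9 of them both SDS buffer libraries were above both unpurified libraries, and in 8 above both purified SDS-free libraries. Of the 10, 7 were called in all 4 libraries and 4 of those passed the test, 2 were SDS-only, namely a second PCBD2 region with 40 and 33 and one near KIF5C with 19 and 14, and none was unpurified-only. The most strongly piled up, near OR4F16, had 181 and 188 against 194 and 191. Per the methods, reads mapped to the mitochondrial genome were removed, and peaks were also filtered against known nuclear copies of it and against blacklisted repeats. The lists used here still held these 10 regions, so whether that filter was applied to them is not known. The share of mitochondrial reads is not in the peak lists, and its part in these differences was not tested.

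**Figure D4:**
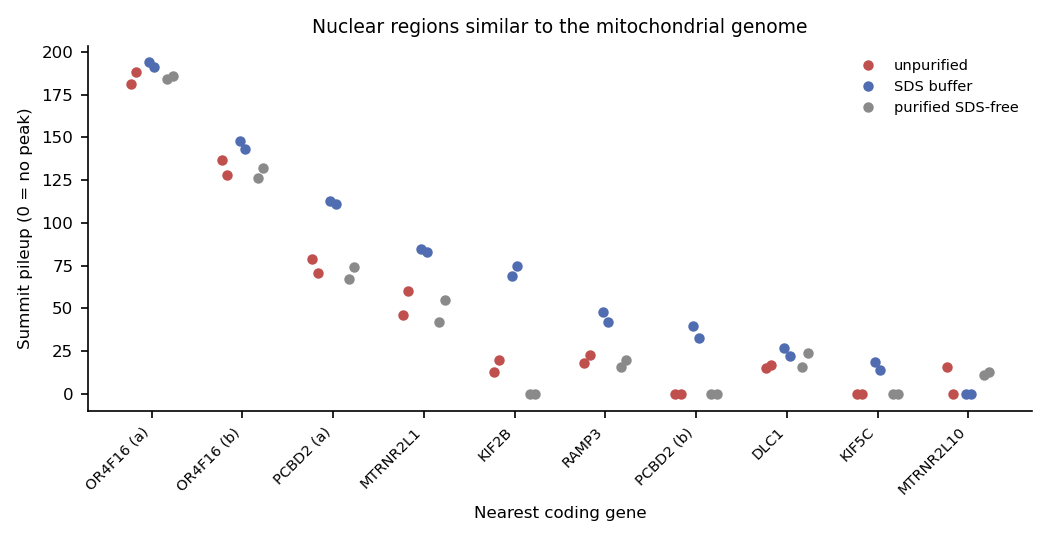
Summit pileup (y axis, 0 where no peak was called) of each library at the 10 nuclear regions with a match to the mitochondrial genome, named by the nearest protein-coding gene and ordered by SDS buffer replicate 1; a and b mark separate regions with the same nearest gene. The SDS buffer points are the highest in 9 of the 10 regions when compared with the unpurified points, for example 69 and 75 against 13 and 20 near KIF2B.

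The next 10 regions by p with a higher pileup in the unpurified libraries, just outside the threshold, were all promoters of 69.2% to 83.1% GC, with log2 fold changes of 0.64 to 1.11 and limma adjusted p from 0.0599 to 0.113. They are given as a description. The first was the promoter of RASGEF1B, with a pileup of 65 and 68 against 39 and 36. The second was that of MCM4, a subunit of the replicative helicase, with 84 and 66 against 48 and 40. The third was that of SNX3, a sorting nexin, with 64 and 55 against 39 and 27. On the other side, the first lower regions outside the threshold, nearest OR4C46, GDF6 and FRMD3, were none of them promoters. The first of these, 14605 bp from an assembly gap, had 20 and 31 against 49 and 42 (limma adjusted p = 0.0652).

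The loci of 99 genes in 5 B-cell lists, each the gene body with 10 kb on each side, held 338 and 314 peaks in the unpurified libraries and 328 and 312 in the SDS buffer libraries, numbers that overlapped. As a share of all peaks this was 0.932% and 0.912% against 0.871% and 0.896%, without overlap (exact permutation p = 0.333). Of the 465 regions in these loci, 194 were called in all 4 libraries, 23 (4.95%) were unpurified-only and 9 (1.94%) SDS-only, to be read against 2.4% and 2.82% of all regions. At least 1 unpurified-only region lay in the loci of 22 of the 99 genes, beside 5.13% of all coding genes, and at least 1 SDS-only region in those of 9, beside 4.68%. These shares of genes do not allow for locus length or for the number of regions in a locus, so the shares of regions are the closer comparison. None of the 194 shared regions passed the limma test, with 35 (18.0%) above and 27 (13.9%) below, beside the 20.9% and 15.7% of all regions.

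Markers of B-cell identity were checked first. The promoter of MS4A1, which encodes CD20, had a pileup of 39 and 49 in the unpurified and 50 and 50 in the SDS buffer libraries. The EBF1 promoter had 40 and 47 against 42 and 40. PAX5 had no peak at its annotated start in these 4 libraries, but a region 2042 bp from a PAX5 start had 57 and 58 against 47 and 43 (log2 fold change 0.27, limma adjusted p = 0.708). The CD79A promoter had 17 in the first unpurified library, none in the second, and 13 and 14 in the SDS buffer libraries. No region of the 4 libraries lay in the CD79B locus. T-cell genes had 28 and 26 peaks against 22 and 21 over 16 loci, with a peak at 3 of 16 promoters in each library. Myeloid and erythroid genes had 13 and 10 against 10 and 11 over 18 loci, and a peak at 2 and 2 against 1 and 2 promoters.

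B-cell transcription factor loci held 124 and 121 peaks against 134 and 124, and 178 regions, with 7 unpurified-only and 1 SDS-only. The unpurified-only regions were at PAX5, EBF1, BCL11A, FOXP1, MEF2B, FOXO1 and PRDM1. At MEF2B, a germinal centre factor, it was the promoter itself (chr19:19280945-19281281), with 16 and 15 and no peak in the other 4 libraries. At FOXO1 (chr13:41238750-41239234), 1766 bp into the gene and of 81.1% GC, the pileup was 31 and 33, with 28 and 25 in the purified SDS-free libraries. The FOXO1 promoter had a peak in every library, so this region is a neighbour of an open promoter. At BCL11A the pileup was 23 and 32, with 26 and 18 in the purified SDS-free libraries. EBF1 had an intronic region of each kind, the unpurified-only one with 21 and 20 and the SDS-only one with 26 and 16.

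Receptor and signalling genes held 84 and 83 peaks against 84 and 79, with 7 unpurified-only regions and 1 SDS-only region among 119. SYK, the kinase next to the B-cell receptor, had 2 unpurified-only regions. One was its CpG-rich promoter (chr9:93563737-93564228), with 24 and 15, and 13 in one purified SDS-free library. The other was intronic, with 18 and 16. Further unpurified-only regions were at CD81, LYN, PLCG2, PIK3CD and INPP5D, the last a phosphatase, with 21 and 22. The one at PIK3CD was the start of another transcript, of 85.6% GC. The SDS-only region lay in an exon of the gene RPS19, 5552 bp upstream of CD79A, the signalling chain of the receptor. Its pileup was 15 and 19, and 16 and 19 in the purified SDS-free libraries.

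Surface and costimulation genes held 60 and 49 peaks against 51 and 44, with 5 unpurified-only and 4 SDS-only regions among 83. The unpurified-only regions were at CD86, CD53, CCR7, FCRLA and SLAMF1, and the SDS-only regions at CD86, CD58, TNFRSF17 and FCRLA. The region in the SLAMF1 locus was intergenic, and the nearest coding start was that of CD84, 27808 bp away. At FCRLA the pair lay within 1 kb upstream of the start, with 16 and 22 in the unpurified and 16 and 11 in the SDS buffer libraries, so that the promoter had a peak in all 4 libraries, at different positions. The TNFRSF17 region, at the promoter of the plasma cell receptor BCMA, had 18 and 20, but another peak of 15 was called in that window in the first unpurified library.

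HLA class II loci held 16 and 13 peaks against 12 and 13. Among 23 regions, 1 was unpurified-only, in CIITA, the master regulator of these genes, with 17 and 20, and 1 was SDS-only, at the promoter of HLA-DRA (chr6:32407426-32407810), with 11 and 11. The HLA-DRA window is of 43.8% GC. NF-kB and activation genes held 54 and 48 peaks against 47 and 52, with 3 unpurified-only and 2 SDS-only regions among 62. The promoter of JUNB, an AP-1 subunit, had 31 and 30 in the unpurified libraries, and 28 in one purified SDS-free library. The ICAM1 region had 16 and 19 and the TRAF1 region 34 and 31, and both genes had another promoter peak in the SDS buffer libraries. One SDS-only region fell in the BIRC3 locus but at the promoter of its neighbour BIRC2, 652 bp from the BIRC2 start, with 31 and 27. The other was at the promoter of NFKB2, where the pileup was 28 and 23 and where the second unpurified library had a separate peak of 49. Of these loci, the promoters of MEF2B, SYK and JUNB had a peak in both unpurified and no SDS buffer library, and that of HLA-DRA had the reverse.

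**Figure D5:**
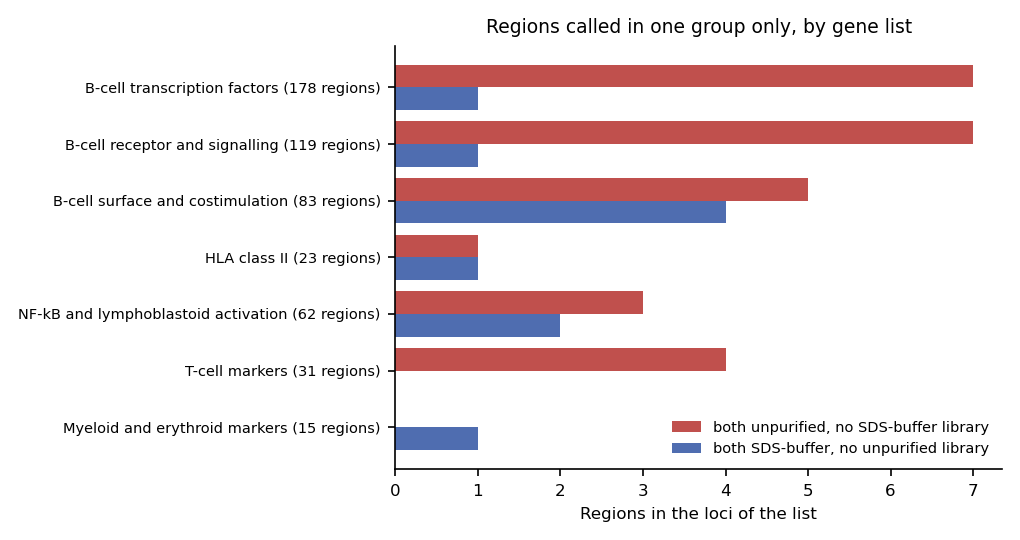
Number of regions (x axis) in the loci of each gene list (y axis, with the regions called in any of the 4 libraries) that were called in both unpurified and no SDS buffer library (red) or the reverse (blue). The 5 B-cell lists add up to 23 and 9, and the T-cell list has 4 and 0.

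Of the lists of other cell types, the T-cell list had no SDS-only region and 4 unpurified-only regions among 31 (12.9%, beside 2.4% of all regions). These lay at CD247, TCF7 and THEMIS. The THEMIS locus held 2 of them. Their pileups were 19 and 14 at CD247, 23 and 19 at TCF7, and 16 and 19 and 13 and 18 at THEMIS. The myeloid and erythroid list had no unpurified-only region and 1 SDS-only region among 15 (6.67%, beside 2.82%), in the HBG1 locus, with 14 and 16. It lay at the promoter of the neighbouring globin gene HBD, 549 bp from its start. Regions of one group only were thus also found at loci of other cell types. The T-cell share of unpurified-only regions, though on few regions, was above the 4.95% of the 5 B-cell lists. A raised share was thus not particular to B-cell loci.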

How the data were processed

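Bulk ATAC-seq of fixed GM12878 was measured in 6 libraries, 2 for each of 3 reverse crosslinking protocols, and grouped by their labels. The authors mapped reads to hg19 with Bowtie2 2.1.0, removed duplicates with Picard 1.79, discarded mitochondrial reads, and used MACS2 with a q-value limit of 0.01 (methods and submitters' processing notes). The MACS2 version is not given in the sources used here. Each deposited list holds per peak a score (−log10 q multiplied by 10 and truncated), a fold enrichment, which is a ratio of the summit to the local background, the −log10 p and −log10 q, and the summit's offset. These deposited values are the authors' own, 1 list per library, and hold no counts. The methods state that reads of bulk samples of the same condition were merged before peak calling. The lists differ between replicates and each was taken as its own library, which the labels pair with it. The methods also describe a filter of peaks against nuclear copies of mitochondrial DNA and blacklisted regions.

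The whole-number summit pileup and local background were solved from fold enrichment and −log10 p under a Poisson model (largest residual 0.000275). Total depth is unknown, and the median pileup of 20 to 22 limits the precision. Regions, promoters (GENCODE 44 lifted to GRCh37), GC content and motifs were derived with Python 3.11.15, pysam 0.24.0 and blastn 2.17.0. Log2 pileups scaled by the library median were tested with limma 3.58.1 (trend) in R 4.3.3, with Benjamini-Hochberg adjustment over all regions. Fold changes are log2 of the pileup with no pseudocount. On pileups simulated as Poisson draws for these 22526 regions, 20 of 100 regions changed 2-fold and 96 of 100 changed 4-fold were called. The draws held no added variation between libraries, and changed regions were raised only on the unpurified side. Recovery in the real libraries may therefore be lower. Library-level values were compared by exact two-sided permutation.

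The gene lists hold 134 genes, of which 133 were placed on the annotation. Named regions are the first 10 of each direction by the weaker −log10 q, up to 10 per direction past the limma threshold, every B-cell list gene with a region of one group only, and 6 marker genes. Sequences are the first 3 of each direction, chromosome 8 left out. Among these, 1 region and 1 marker gene are not reported here. The promoters of BBOF1, IL12B, TMEM238 and DGKQ, the regions just outside the limma threshold and the regions similar to the mitochondrial genome were chosen after their values were seen. Members and lists were chosen with earlier results of these data known.

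Replicate numbers are shared between groups. Deviations of same-numbered libraries from their group means were uncorrelated (r = −0.00034 over 22526 regions), so the numbers were not taken to pair libraries. Alternatives covered peak strength, equal peak numbers, autosomes, merging, scaling, class limits, windows, leaving out each library, and a replicate block.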

Additional observations from a re-analysis of the deposited data

How the results depend on the processing

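All 77 alternatives for the 8 library-level measures kept the direction, though with 2 libraries against 2 none could reach 0.05. For some of them the direction was fixed in advance. The replicate block repeats the main difference, and leaving out a library cannot turn a difference between groups that do not cross. Only the other alternatives could have changed the direction. With the replicate block, differences within replicate number, such as 3.06 percentage points for CpG-rich promoters and −1.98 for the distal share, gave an exact permutation p of 0.5 for each, the smallest possible, and limma with the replicate block called 0 higher and 5 lower regions. Leaving out a library turns "both of one group" into a single library: unpurified-only regions then numbered 2499 to 4958 and SDS-only regions 2784 to 5975. The difference between the shares of these sets called in the purified SDS-free libraries, 7.34 percentage points, ran from −24.4 and −22.4 without an unpurified replicate to 31.5 and 36.5 without an SDS buffer replicate. The set of the reduced group then needs a call in a single library, and the other set needs absence from a single library. These values therefore do not compare like sets. With all 4 libraries kept, the difference was 7.17 with −log10 q of at least 5, 8.82 with equal peak numbers, 7.62 on autosomes and 10.5 where peaks had to cover at least 50% of a region. The limma counts changed when a library was left out, giving 0 to 5 higher regions (5 without SDS buffer replicate 1, 1 without SDS buffer replicate 2) and 0 to 7 lower regions (0 without unpurified replicate 1, 1 without unpurified replicate 2, 7 without SDS buffer replicate 1, 1 without SDS buffer replicate 2). There the lone library was assumed to vary like the other group. With log2(pileup + 5) limma called 2 higher regions. Without the regions similar to the mitochondrial genome, an alternative chosen after seeing the data, it called 1 lower region and 0 higher. Peak lists without read counts limit all pileup values to called peaks, so a region without a peak may still be accessible below the threshold.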
